A study of Mus musculus with 2 samples.

Results

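Edn1, Ece1, Ednrb, Nos3, Adm, Calcrl, Ramp2 and Ramp3 encode the parts of 3 signaling systems that set vessel tone and permeability. These 8 genes were chosen by name from the 31055 features that were counted in single endothelial cells of KPC and PyMT tumors, and all 8 were detected in both libraries. KPC is a pancreatic cancer line and PyMT a mammary cancer line. Either line was implanted at its organ of origin (100000 tumor cells) in wild-type female C57BL6 mice aged 6 weeks, and the tumors were digested 10 days later. No mouse was treated otherwise, and there was no tumor-free group. Blood endothelial cells (BECs) were sorted after depletion of other lineages, and each tumor model gave 1 droplet-based single-cell RNA sequencing library. The depletion included cells with podoplanin, a lymphatic marker, so the lymphatic cells described below are those left after it. How many mice went into a library is not given in the sources used here. With 1 library per model there was no test: tumor model, library, depth and sort cannot be told apart, and every interval covers counting error only.

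Endothelin-1, the peptide encoded by Edn1, is made as a precursor that Ece1, endothelin-converting enzyme, cuts to the active form. It contracts smooth muscle and pericytes through the receptor Ednra, whereas endothelial cells carry the second receptor Ednrb, which takes endothelin up and stimulates release of nitric oxide. Nos3 is the endothelial nitric oxide synthase, and nitric oxide relaxes the vessel wall. Adrenomedullin, the product of Adm, is a hypoxia-inducible peptide that widens vessels and tightens endothelial junctions. It acts on Calcrl, a G protein-coupled receptor that reaches the surface and gains its ligand preference only with a partner, Ramp2 or Ramp3.

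The KPC library held 44441942 UMIs (unique molecular identifiers, 1 for each captured transcript) in 10236 barcodes, and the PyMT library 55547926 UMIs in 12464 barcodes. After removal of barcodes under 500 genes or with 10% or more mitochondrial UMIs, 9591 and 11744 cells remained, with medians of 3141 and 3978 UMIs. The libraries had 170 barcode sequences in common. Cells were put into 9 classes by fixed UMI sums of marker genes, in the order tumor, fibroblast, lymphatic, pericyte, venule, artery, tip, capillary and other. The classes used most below held 1297 (KPC) and 2597 (PyMT) capillary, 1302 and 1991 tip, 640 and 360 venule, 105 and 126 artery, and 802 and 633 lymphatic cells. The class called other, cells under every threshold, held 4089 and 5603, of which 91.0% and 92.8% had a UMI of Pecam1 or Cdh5. The PyMT fibroblast and pericyte classes had 28 and 27 cells, were set against no other class and enter only the likeness over the 9 classes. Cells that met more than 1 rule, as doublets would, made up 7.59% in KPC and 10.5% in PyMT. They were spread unevenly over the classes. Without them, PyMT venule cells went from 360 to 171, PyMT tip cells from 1991 to 1194 and KPC lymphatic cells from 802 to 529. The capillary class, last in the order, held none of them.

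The capillary class was not alike in the libraries. Its rule sums Car4 and Cd300lg, and in KPC it stood at 524 CPM of Car4 and 593 CPM of Cd300lg (counts per 1000000 UMIs, from UMIs summed over the class), whereas in PyMT it stood at 976 CPM of Car4 and 105 CPM of Cd300lg. Capillary markers that the rule does not use (Rgcc, Gpihbp1, Cd36, Fabp4 and Aqp7) summed to 12444 CPM in the KPC capillary class, against 3067 to 6125 CPM in its artery, tip and venule classes. In PyMT the sum was 4800 CPM in the capillary class, against 3314 to 3957 CPM in its artery, tip and venule classes and 4011 CPM in the class other. Car4 itself stood at 675 CPM in PyMT venule and 379 CPM in PyMT tip cells, against 17.1 and 16.3 CPM in KPC. Venule markers outside the rule (Vwf, Lrg1, Nr2f2, Il6st and Vcam1) summed to 1418 CPM in PyMT capillary, 771 CPM in PyMT tip and 3584 CPM in PyMT venule cells. A capillary class by Cd300lg alone (at least 2 UMIs; 699 KPC and 338 PyMT cells) was therefore added after the data were seen, and its values are given where a statement below turns on them. The PyMT tumor class also went against its label, with 42.1 CPM of 5 further epithelial genes against 4493 CPM in KPC. Median depth differed between classes as well, from 1879 UMIs in KPC capillary to 5450 UMIs in KPC tip cells.

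The promoters of 3 members are shown: Edn1 and Adm, the ligand genes, which were both high in tip cells, and Ramp3, which had the largest difference of a member between the libraries. Each line gives the 250 bases before the RefSeq start (GRCm38.p6, plus strand, 5′ to 3′), at chr13:42301226-42301475 for Edn1, chr7:110627407-110627656 for Adm and chr11:6658283-6658532 for Ramp3. Capitals mark CACCC, the core of Krüppel-like factor motifs, or GGGTG on the other strand.
Edn1: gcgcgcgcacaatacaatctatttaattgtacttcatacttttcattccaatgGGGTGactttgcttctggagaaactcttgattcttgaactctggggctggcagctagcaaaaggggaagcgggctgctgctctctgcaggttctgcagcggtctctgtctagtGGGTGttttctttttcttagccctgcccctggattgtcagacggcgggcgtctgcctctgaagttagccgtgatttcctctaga
Adm: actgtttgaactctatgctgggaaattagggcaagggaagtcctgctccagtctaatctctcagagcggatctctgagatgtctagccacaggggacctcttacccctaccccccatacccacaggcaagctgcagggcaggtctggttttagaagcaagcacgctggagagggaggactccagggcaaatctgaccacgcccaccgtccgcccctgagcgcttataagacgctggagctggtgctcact
Ramp3: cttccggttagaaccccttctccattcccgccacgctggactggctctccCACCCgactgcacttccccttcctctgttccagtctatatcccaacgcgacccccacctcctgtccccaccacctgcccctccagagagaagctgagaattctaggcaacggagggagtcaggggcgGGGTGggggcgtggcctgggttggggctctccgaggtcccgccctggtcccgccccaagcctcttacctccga
CACCC occurred at 2 places in the Edn1 window, 2 in the Ramp3 window and 0 in the Adm window, and 52.0% of all 32851 windows of this length held it on either strand. ACGTG, a form of the hypoxia response core, was searched on both strands. It was in none of these 3 windows and in 16.6% of all windows. The other form of the core, GCGTG, was not counted over all windows, but the Adm and Ramp3 windows hold it, as GCGTG or as CACGC. A match or its absence describes these letters only.

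By CPM, Edn1 was highest in arteries of both tumors. The gene lies at chr13:42301476-42307990 (GRCm38, plus strand, Ensembl ENSMUSG00000021367). In KPC it stood at 300 CPM in artery cells (95% Poisson interval 243 to 366), 229 CPM in tip cells (219 to 239), 83.0 CPM in venule cells (72.9 to 94.1) and 29.1 CPM in capillary cells (23.8 to 35.2). In PyMT the artery class had 254 CPM (211 to 303), the venule class 104 CPM (88.3 to 122), the tip class 53.4 CPM (49.5 to 57.5) and the capillary class 23.7 CPM (21.1 to 26.5). Arteries thus came first and capillaries low in both models, while tip cells ranked above venules in KPC and below them in PyMT, in each case with intervals that did not overlap. The share of cells with an Edn1 UMI was also taken after each cell was thinned to 2000 UMIs. It was 32.8% in KPC artery (21.8 to 45.4) and 29.4% in KPC tip cells (26.9 to 32.1), which could not be told apart by this share. In PyMT it was 29.9% in artery (21.4 to 39.5) and 9.02% in tip cells (7.78 to 10.4). In the tumor classes, given as a background (the PyMT one against its label, as above), the share was 1.14% and 0.265% at the same depth. Before thinning, 47.6% of KPC tip, 39.0% of KPC artery and 4.41% of KPC tumor cells had a UMI, at medians of 5450, 2485 and 12688 UMIs.

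Ece1 (chr4:137862237-137965229) was broadly present and again led by arteries. The artery class had 467 CPM in KPC (395 to 547) and 422 CPM in PyMT (367 to 484), whereas the other blood vessel classes lay between 184 and 218 CPM in KPC and between 153 and 289 CPM in PyMT. Venules were the second class in PyMT, at 289 CPM (262 to 317), but stood level with tip cells in KPC, at 187 CPM (172 to 203) and 184 CPM (175 to 193). The converting enzyme was therefore high in the same class as its substrate, but did not share the high Edn1 level of KPC tip cells.

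Ednrb (chr14:103814625-103844402, minus strand) ran the other way in KPC. Among KPC vessel cells the capillary class was highest, at 232 CPM (216 to 248), and the levels were 63.5 CPM in tip (58.2 to 69.0), 55.6 CPM in artery (33.0 to 87.9) and 23.6 CPM in venule cells (18.3 to 29.8). In PyMT the capillary class held 33.7 CPM (30.6 to 37.0) and tip cells 33.8 CPM (30.7 to 37.1), with 22.6 CPM in artery (11.3 to 40.4) and 20.0 CPM in venule cells (13.5 to 28.5). Capillary cells thus stood apart in KPC and did not differ from tip cells in PyMT beyond counting error. Pericytes had the highest Ednrb level of any KPC class, 464 CPM (406 to 528), with a UMI in 68.1% of 119 cells against 4.53% of tumor cells. That class also carried endothelial transcripts (1938 CPM of 5 pan-endothelial genes, against 3894 CPM in the capillary class), and their part in the Ednrb level was not tested.

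Nos3 was similar in capillary, tip and venule cells, higher in arteries and lower in lymphatic cells. Its gene (chr5:24364810-24384474) overlaps Atg9b on the opposite strand, and whether counting used strand is not given in the sources used here; Atg9b itself had 205 and 251 UMIs over all kept cells, against 1460 and 2425 for Nos3. Artery cells had 108 CPM in KPC (75.4 to 150) and 75.9 CPM in PyMT (53.4 to 105). Capillary, tip and venule cells lay between 45.9 and 56.3 CPM in KPC and between 45.8 and 49.6 CPM in PyMT, with overlapping intervals. Lymphatic cells were lower, at 12.4 CPM (9.04 to 16.7) and 30.7 CPM (24.4 to 38.1).

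Adm was rare and had 2 peaks, in tip and lymphatic cells. Its gene lies at chr7:110627661-110629820. KPC tip cells had 45.1 CPM (40.6 to 49.8) and KPC lymphatic cells 49.2 CPM (42.2 to 57.1), and the PyMT values were 24.7 CPM (22.0 to 27.5) and 23.2 CPM (17.8 to 29.8). The capillary classes had 4.47 CPM (2.56 to 7.27) and 7.56 CPM (6.12 to 9.23), and the venule classes 7.17 CPM (4.44 to 11.0) and 5.33 CPM (2.30 to 10.5). Arteries, the leading class for Edn1, had 1 Adm UMI in KPC and 0 in PyMT, where 3 counts would have made 6.15 CPM. After thinning, 9.14% of KPC tip, 7.97% of KPC lymphatic and 0.635% of KPC tumor cells had an Adm UMI. The KPC lymphatic class also had 504 CPM of Angpt2, a gene of the tip rule, against 487 CPM in KPC tip cells. Its Adm level fell without cells that met more than 1 rule, as given below.

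Calcrl, the receptor subunit, was lowest in the class where its ligand was highest among blood vessels. The gene lies at chr2:84330626-84425411 on the minus strand. Venules led at 150 CPM in KPC (136 to 165) and 149 CPM in PyMT (130 to 170), followed by lymphatic cells at 132 CPM (121 to 145) and 122 CPM (109 to 136). Capillary cells had 93.1 CPM (83.4 to 104) and 88.8 CPM (83.7 to 94.1), and tip cells 51.7 CPM (46.9 to 56.7) and 55.3 CPM (51.4 to 59.5). The order venule, capillary, tip was the same in both libraries and no neighboring intervals in it overlapped.

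The partners of Calcrl behaved unlike each other. Ramp2 (chr11:101246028-101259546, which overlaps Vps25 on the same strand) was near uniform, from 550 CPM in tip (534 to 566) to 744 CPM in lymphatic cells (716 to 773) in KPC and from 664 CPM (650 to 678) to 866 CPM (831 to 902) in the same classes of PyMT. Its level in the tumor classes was 29.0 and 88.6 CPM. Ramp3 (chr11:6658521-6677475) was highest in KPC capillary cells, at 287 CPM (270 to 305), followed by the KPC class other at 139 CPM (132 to 146), against 45.3 CPM in tip (40.9 to 50.1), 34.0 CPM in artery (17.0 to 60.8) and 22.2 CPM in venule cells (17.1 to 28.3). No PyMT class compared exceeded 15.5 CPM of Ramp3, the capillary value (13.4 to 17.8). KPC lymphatic cells, at 17.2 CPM (13.2 to 22.2), could not be told from KPC tumor cells, at 14.0 CPM (11.8 to 16.4). KPC fibroblasts were lower than the lymphatic cells, at 8.47 CPM (5.17 to 13.1).

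**Figure D1:**
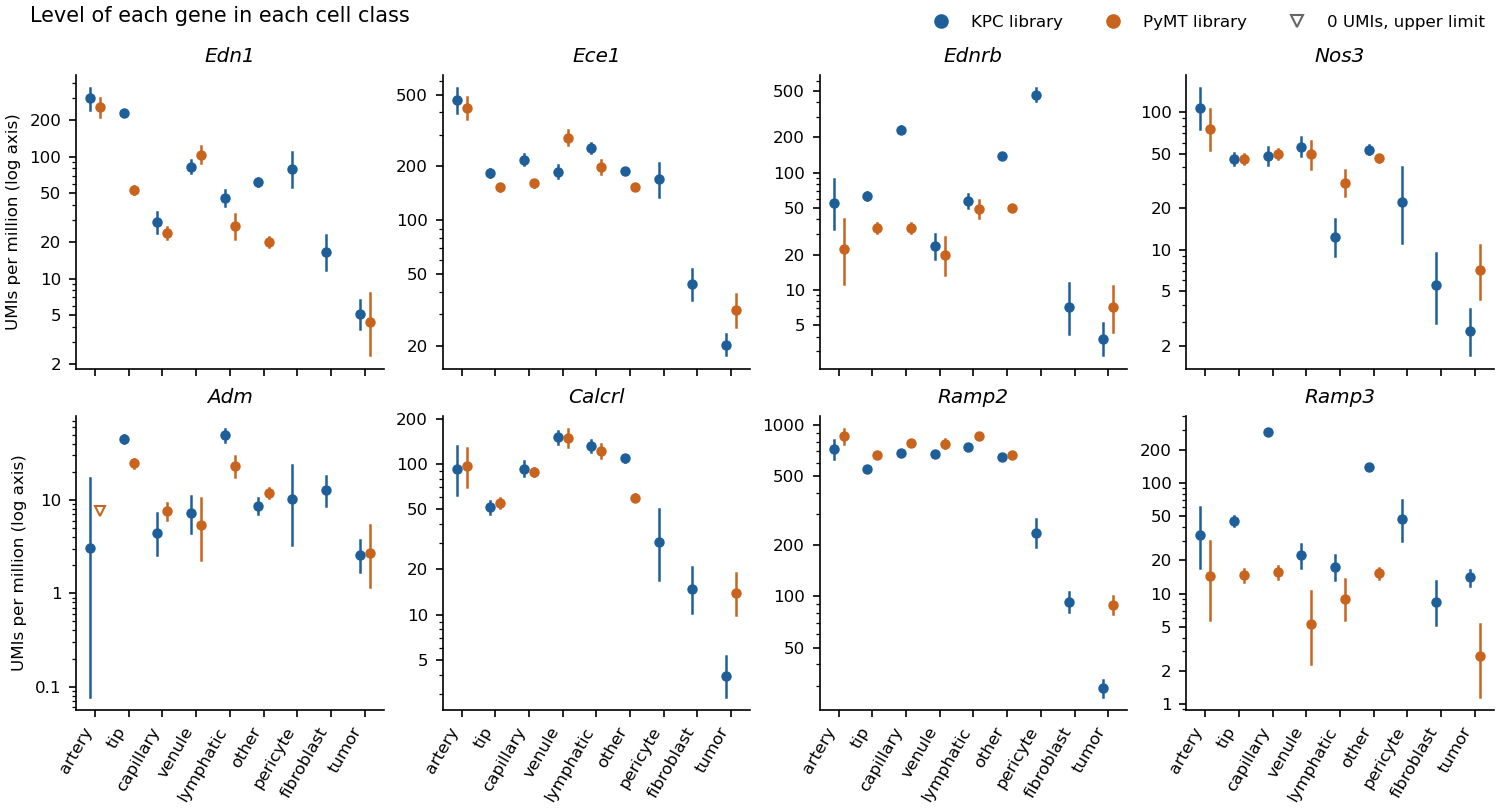
Level of each gene (CPM, log axis) by cell class in the KPC (blue) and PyMT (orange) libraries. Points are levels of summed UMIs and bars exact 95% Poisson intervals; the open triangle is the upper limit of Adm in PyMT arteries, which had 0 UMIs, and the PyMT fibroblast and pericyte classes are left out for few cells. Edn1 and Ece1 peak in arteries of both libraries, Adm in tip and lymphatic cells, and Ednrb and Ramp3 are high in the capillary class of KPC but not of PyMT.

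Each class was then set against the capillary class of its own library. A gene was counted as past 2-fold when its log2 ratio of CPM was at least 1 in size and both classes together held at least 50 UMIs of it. The shares given for all genes are of those that met the same UMI minimum.

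In arteries, 3 of the 7 members with enough UMIs were past 2-fold higher in KPC (all genes: 4.61% higher) and 2 lower (10.1% lower). In PyMT 2 of 8 were higher (7.12%) and 0 lower (9.45%). Edn1 was higher by a log2 ratio of 3.37 in KPC (95% interval 2.95 to 3.78) and 3.42 in PyMT (3.11 to 3.73). Ece1 was higher by 1.10 (0.84 to 1.35) and 1.39 (1.18 to 1.60). The log2 ratio of Nos3 was 1.17 in KPC (0.60 to 1.70) and 0.61 in PyMT (0.09 to 1.09), so it passed 2-fold in KPC alone, with intervals that overlapped. Ednrb and Ramp3 were the members below the line in KPC, at -2.06 (-2.82 to -1.39) and -3.08 (-4.08 to -2.23), and in PyMT they stood at -0.58 (-1.59 to 0.28) and -0.11 (-1.44 to 0.96). Over the settings tried the KPC values lay between -2.85 and -1.89 for Ednrb and between -4.44 and -2.82 for Ramp3. The median log2 ratio was 0.07 over the members and -0.05 over all genes in KPC, and 0.13 and 0.00 in PyMT.

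In tip cells, 2 of 8 members were higher and 2 lower in KPC (all genes: 2.76% and 6.12%), and 2 were higher and 0 lower in PyMT (0.470% and 0.958%). The higher ones were the ligand genes in both libraries. Edn1 had log2 ratios of 2.98 in KPC (2.69 to 3.27) and 1.17 in PyMT (0.98 to 1.37), the latter 0.63 with capillaries taken by Cd300lg alone. Adm had 3.33 in KPC (2.61 to 4.15) and 1.71 in PyMT (1.37 to 2.05), the latter 3.29 by Cd300lg alone. Its KPC ratio divides by 16 capillary UMIs, or 4.47 CPM (2.56 to 7.27), near the 2.57 CPM of KPC tumor cells (1.71 to 3.72). The PyMT ratio of Adm by Cd300lg alone divides by 2.52 CPM in 338 capillary cells and has no interval here. PyMT tumor cells had 2.72 CPM of Adm (1.17 to 5.35). Over the settings tried the KPC values lay between 2.77 and 3.70 for Edn1 and between 3.27 and 4.78 for Adm, the highest of each with classes on thinned counts. Ednrb and Ramp3 were lower in KPC, by -1.87 (-2.03 to -1.71) and -2.66 (-2.84 to -2.49), and stood at 0.01 (-0.19 to 0.20) and -0.09 (-0.38 to 0.21) in PyMT. Calcrl was below the capillary level in both without passing 2-fold, at -0.85 (-1.06 to -0.64) and -0.68 (-0.82 to -0.55). The medians were -0.29 and -0.08 over the members and -0.07 and 0.00 over all genes.

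In venules, 1 of 7 members was higher and 2 lower in KPC (2.42% and 4.82% of all genes), and 1 of 8 was higher and 1 lower in PyMT (3.59% and 2.71%). Edn1 was higher in both, at 1.51 (1.18 to 1.86) and 2.13 (1.85 to 2.42). Ramp3 was lower in both, at -3.69 in KPC (-4.08 to -3.33) and -1.54 in PyMT (-2.77 to -0.53), the latter from 8 venule UMIs, and they lay between -4.48 and -3.31 and between -3.25 and -1.05 over the settings tried. Ednrb was lower in KPC, at -3.30 (-3.67 to -2.94), and below the capillary level without passing 2-fold in PyMT, at -0.75 (-1.34 to -0.22). Calcrl was above it by similar amounts, 0.69 (0.48 to 0.90) and 0.75 (0.54 to 0.96). The medians were -0.03 and -0.01 over the members, against -0.05 and 0.03 over all genes.

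In lymphatic cells, 1 of 8 members was higher and 3 lower in KPC (8.08% and 9.52% of all genes), and 1 was higher and 0 lower in PyMT (8.37% and 5.62%). The higher one was Adm, at 3.46 (2.72 to 4.30) and 1.62 (1.14 to 2.10), the former over the same 16 capillary UMIs. The KPC value was 1.94 without cells that met more than 1 class rule and 4.20 with classes on thinned counts. The PyMT value was 3.21 with capillaries by Cd300lg alone, again over 2.52 CPM and without an interval. The lower ones in KPC were Nos3 at -1.95 (-2.46 to -1.47), Ednrb at -2.01 (-2.24 to -1.79) and Ramp3 at -4.06 (-4.45 to -3.68), which lay between -5.06 and -3.70 over the settings tried. The medians were 0.17 and 0.25 over the members and 0.02 and 0.08 over all genes.

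The receptor genes of PyMT depended on how capillaries were taken. Against PyMT capillaries by Cd300lg alone, the log2 ratio of Ednrb was -0.79 in tip, -1.37 in artery, -1.55 in venule and -0.25 in lymphatic cells. That of Ramp3 was -0.95 in tip, -0.98 in artery, -2.41 in venule and -1.65 in lymphatic cells. By these values both genes were higher in those capillaries than in each of these 4 classes, as in KPC, but no interval is given for the ratios. Ednrb differed little from PyMT lymphatic cells, which had 49.1 CPM (41.1 to 58.3). The Ramp3 values of artery and venule cells rest on 7 and 8 UMIs. Levels in those capillaries were 58.5 CPM for Ednrb and 28.3 CPM for Ramp3, against 207 and 240 CPM in KPC capillaries taken the same way.

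**Figure D2:**
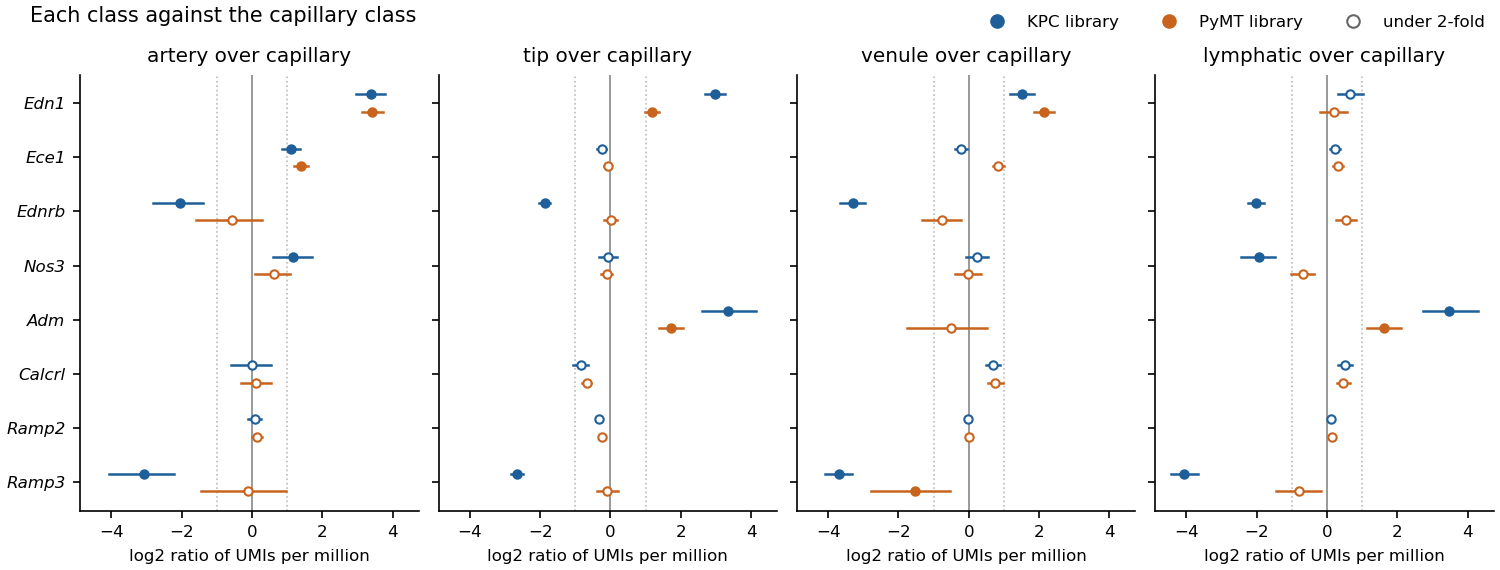
Log2 ratio of each gene's level (CPM) in artery, tip, venule and lymphatic cells over capillary cells, in the KPC (blue) and PyMT (orange) libraries. Bars are exact 95% intervals for counting error, filled points are past 2-fold (dotted lines) and open points are not; genes under 50 UMIs in both classes together, and Adm in PyMT arteries, are not drawn. Edn1 is to the right in arteries, tip cells and venules of both libraries, and Ednrb and Ramp3 are far to the left in KPC.

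Levels were also followed along the marker genes of the rules, which is a description, since the classes use the same genes. Cells of the blood vessel classes and of the class other were thinned to 2000 UMIs and binned by their UMIs of Apln and Angpt2, both genes of the tip rule. From 0 to 5 or more marker UMIs, Edn1 went from 57.2 CPM (51.0 to 64.0) to 585 CPM (527 to 648) in KPC, and from 26.7 CPM (23.8 to 29.7) to 137 CPM (105 to 175) in PyMT. Adm went from 5.03 CPM (3.32 to 7.32) to 141 CPM (113 to 173) in KPC and from 9.69 CPM (8.01 to 11.6) to 57.3 CPM (37.4 to 83.9) in PyMT. Both ligand genes thus increased along the axis in both models. Calcrl went from 110 CPM (101 to 119) to 30.1 CPM (18.1 to 46.9) in KPC. In PyMT it stood at 69.8 CPM (65.2 to 74.7) at 0 and between 65.6 and 73.3 CPM up to 4 marker UMIs. Only the bin of 5 or more was apart, at 41.9 CPM (25.2 to 65.4) from 19 UMIs, with an interval that met that at 0. Each end bin held at least 227 cells.

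Along Car4 and Cd300lg, the genes of the capillary rule, the libraries parted. In KPC, Ramp3 went from 72.5 CPM (66.2 to 79.2) at 0 marker UMIs to 518 CPM (347 to 744) at 5 or more (28 cells), and Ednrb from 77.9 CPM (71.4 to 84.8) to 464 CPM (303 to 680). In PyMT, Ramp3 went from 17.5 CPM (15.2 to 20.1) to 7.61 CPM (2.79 to 16.6) and Ednrb from 48.8 CPM (44.8 to 53.0) to 16.5 CPM (8.78 to 28.2). The direction in PyMT depended on the marker. By Cd300lg alone, PyMT Ramp3 was 16.4 CPM (14.5 to 18.4) at 0, 27.7 CPM (19.3 to 38.5) at 1 and 51.7 CPM (23.7 to 98.2) at 2 UMIs, and Ednrb was 44.4 CPM (41.3 to 47.6), 58.5 CPM (46.0 to 73.5) and 69.0 CPM (35.6 to 120). These 3 bins held 8623, 632 and 87 cells. The last bin, 13 cells with 3 to 4 UMIs, had 0 UMIs of Ramp3, with an upper limit of 142 CPM, and 154 CPM of Ednrb (41.9 to 394).

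**Figure D3:**
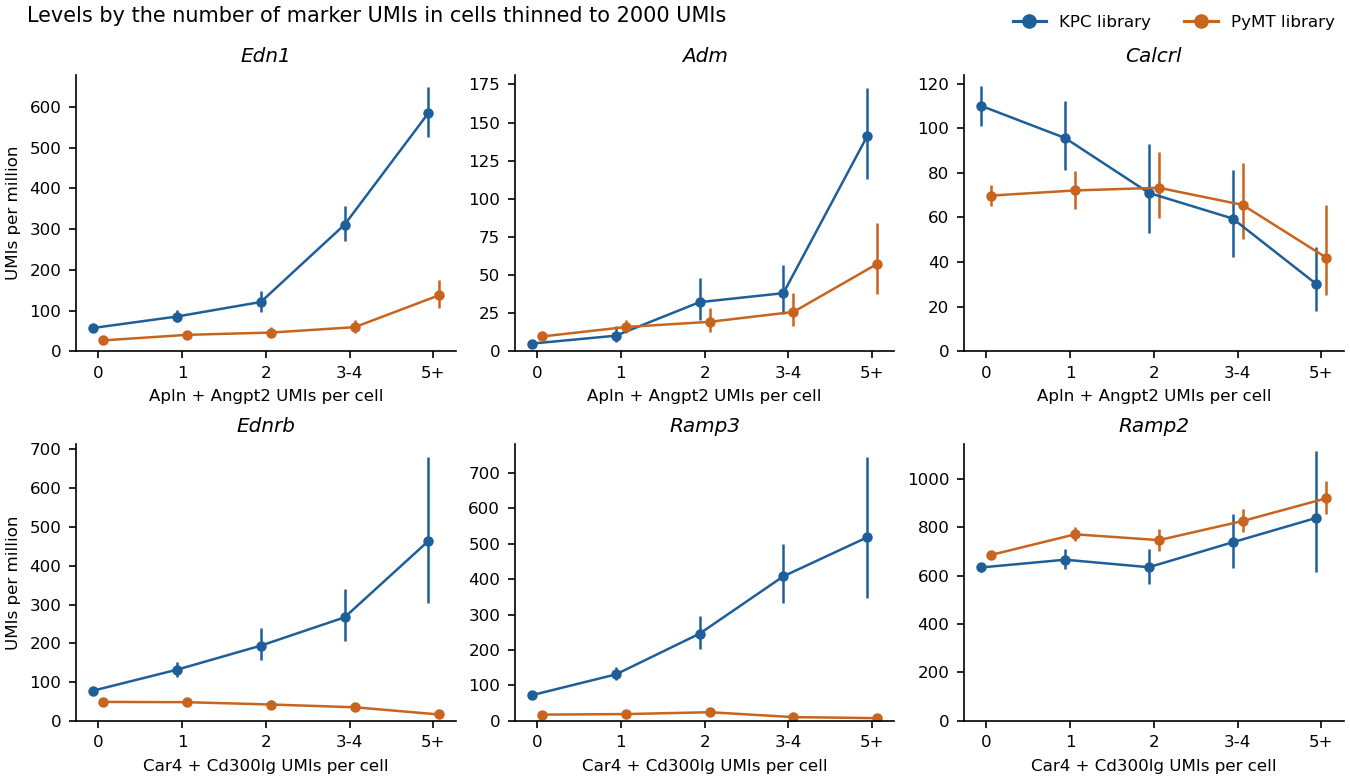
Levels (CPM) of Edn1, Adm and Calcrl by the number of Apln and Angpt2 UMIs per cell (upper row) and of Ednrb, Ramp3 and Ramp2 by the number of Car4 and Cd300lg UMIs per cell (lower row), in cells thinned to 2000 UMIs. Points are levels of summed UMIs and bars exact 95% Poisson intervals, KPC in blue and PyMT in orange. Edn1 reaches 585 in KPC and 137 in PyMT at 5 or more tip marker UMIs, and Ednrb and Ramp3 climb with the capillary markers in KPC but not in PyMT.

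Pairs of members were also counted within single thinned cells, beside the number that the shares of each gene would give if cells with either were spread evenly. Edn1 and Adm were together in 66 KPC tip cells, against 33.3 from the shares, and in 15 KPC lymphatic cells, against 2.87. In PyMT they were together in 13 tip cells, against 8.66, in 1 lymphatic cell, against 0.777, and in 0 capillary cells, against 1.34. Ednrb and Ramp3 were together in 84 KPC capillary cells, against 64.8, and in 19 PyMT capillary cells, against 3.75. In tip cells that pair was found in 24 KPC cells, against 8.80, and in 19 PyMT cells, against 3.88. Thus Ramp3, although rare in PyMT, was found with Ednrb there more often than the shares gave. Edn1 and Ednrb, ligand and receptor, were together in 17 KPC tip cells, against 34.4, and in 7 PyMT tip cells, against 12.4. In venules the pair was in 4 KPC cells, against 2.94, and 3 PyMT cells, against 1.55, and in lymphatic cells in 0 of KPC, against 2.99, and 3 of PyMT, against 1.48. Calcrl and Ramp2 were close to the product of their shares in KPC capillary cells, with 67 against 65.0, and in PyMT tip cells, with 140 against 136. They were somewhat above it in KPC venule cells, with 115 against 103, and in PyMT capillary cells, with 316 against 296. In KPC lymphatic cells they were slightly below it, with 102 against 105. Cells that met more than 1 class rule were kept in these counts, and their part in the pairs was not tested. Before thinning, the KPC lymphatic class held 802 cells with them and 529 without. Thinning kept 597 KPC and 2367 PyMT capillary cells. Cells of a class share a library, so these counts are descriptions.

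The libraries were compared within the capillary, tip, venule and artery classes. Of the 32 pairs of member and class, 28 had enough UMIs. In PyMT, 5 of them were past 2-fold lower (5.27% of the pairs of all genes) and 0 higher (2.20%). The median log2 ratio of PyMT over KPC was -0.17 over the members' pairs and -0.08 over those of all genes. Ramp3 made up 3 of the 5, with 18.5-fold less in PyMT capillary cells (log2 ratio -4.21, -4.44 to -3.99), 3.10-fold less in tip cells (-1.63, -1.89 to -1.38) and 4.16-fold less in venule cells (-2.06, -3.33 to -0.99). The venule value rests on 8 PyMT UMIs and lay between -3.71 and -1.42 over the settings tried. Ednrb was 6.87-fold lower in PyMT capillary cells (-2.78, -2.95 to -2.61) and Edn1 4.28-fold lower in PyMT tip cells (-2.10, -2.23 to -1.97). With capillaries by Cd300lg alone, the differences in that class were -3.08 for Ramp3 and -1.82 for Ednrb, both still past 2-fold.

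The other members differed less between the libraries. The log2 ratio of Nos3 was between -0.51 and 0.04 over the 4 classes, that of Calcrl between -0.07 and 0.10 and that of Ramp2 between 0.18 and 0.27, and that of Ece1 ran from -0.44 in capillary to 0.63 in venule cells. Adm had enough UMIs in tip cells, at -0.87 (-1.09 to -0.65), and in capillary cells, at 0.76 (-0.02 to 1.62). Outside these classes, lymphatic cells of PyMT had more Nos3, by 1.30 (0.76 to 1.87), and less Adm, by -1.08 (-1.52 to -0.66). Cells of the class other had less Ramp3 in PyMT, at -3.19 (-3.37 to -3.02), less Edn1, at -1.66 (-1.84 to -1.48), and less Ednrb, at -1.49 (-1.60 to -1.37), so the lower Ramp3 and Ednrb were not confined to cells chosen by Car4 or Cd300lg. Calcrl, alike in the 4 classes, was also lower in PyMT cells of the class other, at -0.86 (-0.98 to -0.75), without passing 2-fold. Capillary markers outside the rule also differed in that class, with 7697 CPM in KPC and 4011 CPM in PyMT, and their part in these differences was not tested.

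**Figure D4:**
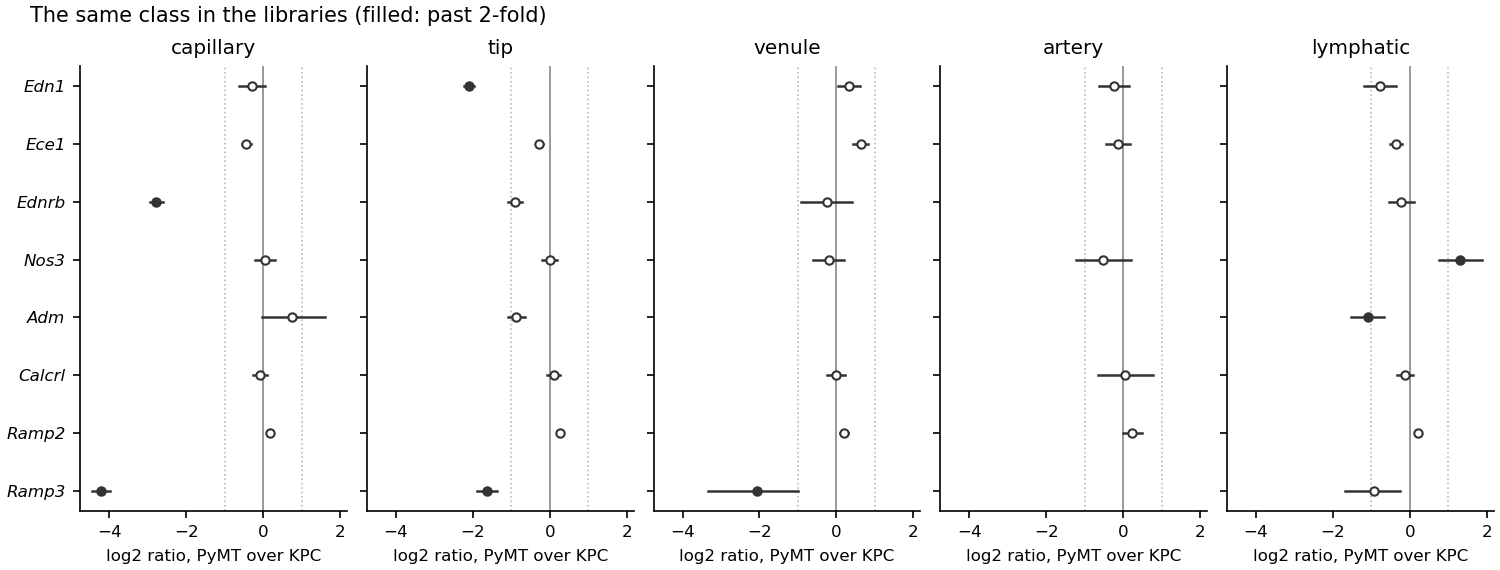
Log2 ratio of each gene's level (CPM) in the PyMT over the KPC library within the capillary, tip, venule, artery and lymphatic classes. Bars are exact 95% intervals for counting error, filled points are past 2-fold (dotted lines), and genes under 50 UMIs in both libraries together are not drawn. Ramp3 lies at -4.21 and Ednrb at -2.78 in capillary cells and Edn1 at -2.10 in tip cells, while Calcrl and Ramp2 lie near 0 in every class drawn.

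The lists held 38 further genes of these pathways. Their counts are read against the shares of all genes past 2-fold given above for the same comparison. None of the 6 other endothelin genes reached 50 UMIs in artery, tip, venule or lymphatic cells against capillaries. Ednra, the contractile receptor, had 63.1 CPM in KPC pericytes, 28.8 CPM in KPC fibroblasts and at most 0.839 CPM in the KPC blood vessel and lymphatic classes, and Edn3 and Kel were at or near 0. Among the 8 genes around adrenomedullin, 0 of 3 counted were past 2-fold in tip cells of either library. In lymphatic cells of both, 1 of 3 was higher (all genes: 8.08% in KPC and 8.37% in PyMT), with list medians of -0.11 in KPC and 0.87 in PyMT. That was Pam, which amidates the peptide to its active form, at log2 ratios of 1.42 (1.15 to 1.70) and 1.61 (1.39 to 1.83). Calca and Calcb, genes of the related CGRP peptides, were found at 53.8 and 28.8 CPM in KPC fibroblasts, and Ramp1, the partner that makes Calcrl a CGRP receptor, at 99.7 CPM in KPC pericytes.

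Of the 24 nitric oxide genes, 2 of 15 counted were higher and 3 lower in KPC arteries (all genes: 4.61% and 10.1%), and 1 of 17 higher and 3 lower in PyMT arteries (7.12% and 9.45%). Ddah1, which breaks down natural inhibitors of nitric oxide synthase, was higher in arteries of both, at 1.53 (1.09 to 1.95) and 1.21, an interval that began at 0.90. Ass1, which regenerates arginine, was higher in KPC arteries, at 2.84 (2.26 to 3.41), with 136 CPM against 19.0 CPM in capillaries. Nostrin, which moves Nos3 away from the membrane, was lower than in capillaries in both, at -2.58 (-3.71 to -1.64) and -1.13 (-2.14 to -0.28). Nos2, the inducible synthase, was higher in KPC tip cells, at 2.78 (2.00 to 3.67) or 26.9 against 3.91 CPM. In tip cells 2 of 17 nitric oxide genes were higher and 1 lower in KPC (all genes: 2.76% and 6.12%) and 0 of 17 were past 2-fold in PyMT (0.470% and 0.958%), with list medians of 0.19 and 0.08. In lymphatic cells the counts were 4 higher and 4 lower of 18 in KPC (all genes: 8.08% and 9.52%), and 2 higher and 3 lower of 19 in PyMT (8.37% and 5.62%). Gucy1a1 and Gucy1b1, the subunits of the nitric oxide receptor, were among the higher ones in lymphatic cells of both, with Gucy1b1 at 57.1 CPM in KPC and 22.1 CPM in PyMT, and both stood at 145 CPM in KPC pericytes. In venules 1 of 16 was higher and 1 lower in KPC (all genes: 2.42% and 4.82%) and 1 of 17 lower in PyMT (2.71%). Of the genes around adrenomedullin, 1 of 3 (Pam) was higher in PyMT venules and 0 of 3 in KPC venules, and in arteries 1 of 3 was higher in PyMT (Pam) and 1 of 3 lower in KPC (Crcp).

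The genes most like each member over the 9 classes were ranked by the lower Pearson r of the libraries, on log2(CPM + 10), among 7515 genes. Ramp2 was most like Myct1 (r 0.98 in KPC and 0.99 in PyMT), Phactr2 and Tie1, and Nos3 most like Adcy4 (0.97 and 0.97), Tox4 and Tlnrd1. Ece1 was most like She (0.97 and 0.95), S1pr1 and Notch1, and Calcrl most like Gpr146 (0.95 and 0.95), H2-M3 and Phf20l1. Edn1 followed with Larp4b (0.91 and 0.90), Tspan2 and Rexo2, Ednrb with Ddrgk1 (0.88 and 0.91), Slc25a16 and Arhgef7, and Ramp3 with Pde12 (0.86 and 0.91), Kctd12b and Samd9l. Adm had the weakest likeness, with Rtraf (0.88 and 0.79), Nsg1 and Cox7a2. Tumor and fibroblast classes, which were low in most members, take part in each r, as do the PyMT fibroblast and pericyte classes of 28 and 27 cells in each PyMT r, and 9 points that share 1 library each give a description only.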

How the data were processed

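BECs of orthotopic KPC and PyMT tumors were sequenced as 1 library each. The authors aligned reads to mm10 and counted UMIs with Cell Ranger (3.0 in the submitters' processing notes, 3.0.2 in the matrix headers), and deposited whole-number UMI counts per gene and barcode without normalization. The sources name v3 chemistry in one place and a v2 kit in another. The capture is at the 3′ end, so levels are not scaled by length.

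From these counts, barcodes under 500 genes or at 10% or more mitochondrial UMIs were dropped. Classes were set in this order by UMI sums: tumor Krt8 and Krt18, at least 5; fibroblast Col1a1 and Col1a2, 10; lymphatic Mmrn1 and Prox1, 3; pericyte Notch3 and Higd1b, 2; venule Ackr1 and Selp, 3; artery Gja5 and Sema3g, 2; tip Apln and Angpt2, 3; capillary Car4 and Cd300lg, 2. No doublet caller was run. Levels are CPM of UMIs summed over a class with exact 95% Poisson intervals, and log2 ratios have exact intervals from the binomial distribution of both sums. A count of 0 was set at a floor of 3 counts. Shares of cells with a UMI of a member come from cells thinned to 2000 UMIs (seed 0), except those given as before thinning. Thinning left out 3155 KPC and 1474 PyMT cells. Of the capillary cells it left out 700 of 1297 in KPC and 230 of 2597 in PyMT, so thinned KPC capillary values describe the deeper cells of that class. Comparisons needed 50 UMIs in both classes together. Alternatives changed the filter on cells, the class rules, likely doublets, the scaling, the fold and the UMI minimum. Ratios and intervals were tested on simulated data. Python 3.11.15, numpy 2.4.6, scipy 1.17.1 and pandas 2.3.3 were used. Positions are from GENCODE M21, with Ensembl IDs as in the files, and promoters from RefSeq, where 6 of 8 members matched. Edn1, Ece1, Adm, Ramp3 and Nos3 overlap genes on the opposite strand, whose reads cannot be told apart unless counting used strand. Named genes are the 8 members, 38 genes of their pathways (1 further gene of the fixed list is not reported here) and the 3 genes most like each member. The members and lists were chosen with earlier results of these data known.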

Additional observations from a re-analysis of the deposited data

Results flagged for a closer look

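Results were listed here when a member went opposite ways in the libraries against capillary cells with both intervals clear of 0; with 1 library each, the difference between the libraries was not tested. Ece1 in venules over capillaries had a log2 ratio of -0.22 in KPC (-0.38 to -0.06) and 0.84 in PyMT (an interval that began at 0.69), so KPC minus PyMT was -1.07. Ednrb in lymphatic over capillary cells had -2.01 in KPC (-2.24 to -1.79) and 0.54 in PyMT (0.25 to 0.83), a difference of -2.56. With capillaries taken by Cd300lg alone, the PyMT value of Ednrb was -0.25. That is the sign of KPC, but the value is small and has no interval here. The Ece1 values were then -0.05 in KPC, near 0, and 0.73 in PyMT.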

How the results depend on the processing

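Of the ratios past 2-fold, 23 against capillaries and 5 between the libraries, every one kept its sign under each of the 9 other settings that can change a ratio and stayed past 2-fold, except Edn1 in PyMT tip cells at 0.63 with capillaries by Cd300lg alone. Most counts of members moved by at most 1.5-fold. The exceptions were counts within PyMT and the count between the libraries. Members past 2-fold in PyMT venules went from 2 to 4 with classes on thinned counts, 5 by the mean of single-cell CPM and 5 at a 1.5-fold line. In arteries they went from 2 to 4 when cells needed 1000 genes and less than 5% mitochondrial UMIs. In lymphatic cells they went from 1 to 2 on thinned counts and by Cd300lg alone, and to 3 at 1.5-fold, and in tip cells from 2 to 1 by Cd300lg alone. Between the libraries the count went from 5 to 9 at 1.5-fold. The cause was not tested, except that the lower line counts smaller ratios by construction. Of the recomputed levels, 302 left their counting interval and 994 did not, and of the ratios 132 did and 913 did not. The 913 include the ratios under the 1.5-fold line and without the UMI minimum, which are unchanged by construction. Both the 994 and the 913 also include values of classes that a setting left untouched. An example is the capillary class without cells that met more than 1 rule. Low UMI counts limit Adm and Ramp3 most, since PyMT arteries held 0 and 7 of their UMIs and PyMT venules 8 of each. No paired analysis was possible because each model has 1 library.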
